A study of Rattus norvegicus with 145 samples.

Results

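The acyl-CoA thioesterases described here are 8 genes of the Acot family, namely Acot1, Acot2, Acot3, Acot4, Acot7, Acot8, Acot12 and Acot13, out of 17337 genes counted in rat liver. They were taken by symbol from the 5 count tables and were picked with their level against the acetamide dose already known, so that the dose contrasts below describe these genes and test nothing about them. The files hold 12 genes with an Acot symbol, and the other 4 (Acot5, Acot6, Acot9 and Acot11) are given with the remaining thioesterases. All 8 genes passed the filter on low counts in every data set.

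Wistar rats received acetamide in water by gavage each day, or the vehicle alone, and RNA of the left liver lobe was sequenced on the day after the last dose, following an overnight fast. Experiment A held Hsd:WI males of 9 to 10 weeks at doses of 0, 30, 100, 300 and 1000 mkd (mg/kg/day) for 7 days (males day 8). Experiment B held Crl:WI rats of 8 to 10 weeks of both sexes that received 0, 300, 500, 750, 1000 or 1500 mkd for 7 days (day 8) or 28 days (day 29). Each of the 29 groups had 5 rats, 145 in all, each a single animal. The vehicle males of day 29 carry the exposure label of experiment A but the titles and the strain of experiment B, and were taken as experiment B. Depth ranged from 15449716 to 39986531 reads on genes in a rat. The 10 hepatocyte markers that were looked up, among them Alb, Apoa1 and Ttr, summed to between 172550 and 360067 CPM (reads of a gene scaled to the library size) in the vehicle rats. In such bulk samples, fewer cells of a type and less RNA per cell cannot be told apart.

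Acyl-CoA thioesterases cleave the thioester bond between a fatty acid and coenzyme A, which frees both and so sets how much activated fatty acid is on hand for oxidation, lipid synthesis and signalling. Acot1 acts in the cytosol, Acot2 in the mitochondrial matrix and Acot3 and Acot4 in peroxisomes, and these close relatives lie side by side in the rodent genome. Acot8 is a peroxisomal enzyme of a different fold. Acot7 is a cytosolic enzyme best known from neurons, Acot12 is a cytosolic acetyl-CoA hydrolase of the liver, and Acot13 is a small enzyme associated with mitochondria. In rodent liver several of these genes are known to rise with fasting and with ligands of the fatty acid receptor PPARα, which binds as a dimer with RXR to a direct repeat of the hexamer AGGTCA with a single spacer base, called DR1.

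In the RefSeq annotation of the assembly GRCr8, which is not the build of the counts (Rn6), the order on chromosome 6 is Acot2, Acot1, Rpl23al8, Acot4, Acot3, Acot5, a non-coding gene, Acot5-ps1 and Acot6. Because Acot1 to Acot6 are paralogs, reads from near-identical stretches may have been split between them or lost in counting, and their counts carry that uncertainty. The 250 bases before the start sites of Acot1, Acot2, Acot3 and Acot4, the members that varied together from rat to rat, are shown to let their promoters be compared, as RefSeq of GRCr8 gives them on the plus strand. Capitals mark the hexamer AGGTCA and a DR1 with at most 2 mismatches, on either strand.
Acot1, chr6:109367024-109367273: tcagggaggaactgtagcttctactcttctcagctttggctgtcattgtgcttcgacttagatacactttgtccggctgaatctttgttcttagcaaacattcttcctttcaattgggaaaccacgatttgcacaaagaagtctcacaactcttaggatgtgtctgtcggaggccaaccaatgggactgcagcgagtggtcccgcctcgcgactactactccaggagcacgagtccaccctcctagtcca
Acot2, chr6:109342590-109342839: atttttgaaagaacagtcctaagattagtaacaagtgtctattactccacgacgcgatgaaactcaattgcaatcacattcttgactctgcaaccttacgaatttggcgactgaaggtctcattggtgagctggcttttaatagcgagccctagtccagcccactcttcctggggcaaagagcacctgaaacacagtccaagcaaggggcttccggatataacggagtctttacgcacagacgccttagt
Acot4, chr6:109399604-109399853: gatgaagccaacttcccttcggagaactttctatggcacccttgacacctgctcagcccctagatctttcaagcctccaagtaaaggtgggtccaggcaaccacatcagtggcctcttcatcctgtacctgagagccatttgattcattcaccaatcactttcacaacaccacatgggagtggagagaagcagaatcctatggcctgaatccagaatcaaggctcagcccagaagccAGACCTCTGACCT
Acot3, chr6:109413447-109413696: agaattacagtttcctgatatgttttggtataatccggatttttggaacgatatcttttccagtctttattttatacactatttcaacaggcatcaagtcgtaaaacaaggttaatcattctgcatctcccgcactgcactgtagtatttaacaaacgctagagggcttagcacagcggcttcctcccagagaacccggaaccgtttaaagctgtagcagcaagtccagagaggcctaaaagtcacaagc
The windows had no run of 12 bases in common in any of the 6 pairs, and at equal distance from the start site 22.0 to 25.2% of bases were the same.

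The hexamer AGGTCA was searched on both strands of the same 250 bases before every start site, and 14.1% of 33469 promoters held it. Of the 4 neighbours, Acot4 alone held it, in the opposite orientation at the last 6 bases before the start site, where it formed part of a 13-base DR1 match with 1 mismatch, AGACCTCTGACCT as read on the plus strand. Outside this cluster, the Acot8 window (chr3:173962189-173962438, minus strand) held GGGTCAGAGGTCA, from 22 to 10 bases before the start, and the Acot12 window (chr2:24721709-24721958, plus strand) held TGACCTCTCACCT, from 105 to 93 bases before it, each with 1 mismatch to AGGTCANAGGTCA in the same or the opposite orientation. A DR1 with up to 2 mismatches was present in 3.15% of all promoters and an exact one in 0.0508%. These letters were not found in the windows of Acot1, Acot2, Acot3, Acot7 and Acot13. The windows of Acot1, Acot2 and Acot4 held CCAAT on either strand, as did 34.0% of promoters.

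Acot1 stood far apart from the other members in its response to acetamide. In each of the 5 data sets its log2 fold change at the highest dose was the largest of the 8 genes, between 3.29 and 5.10, while its level in vehicle rats was low and uneven. Genes counted as called when the change was 1.5-fold or more and p, adjusted by Benjamini-Hochberg over all genes tested in the quasi-likelihood F-test (edgeR), did not exceed 0.05. By these criteria Acot1 was called at the highest dose of all 5 data sets. The share of all genes whose groups separate without overlap is not given. Statements on overlap here and below therefore describe the genes named and show no excess.

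In experiment A, the vehicle rats had 0.140, 0.218, 0.265, 0.271 and 1.90 CPM of Acot1, from 4 to 58 reads. At 1000 mkd the rats had 1.53, 6.47, 0.562, 7.05 and 12.2 CPM. Of these, 3 lay above every vehicle rat, and the groups overlapped because of the vehicle rat with 1.90 CPM. The log2 fold change of Acot1 was 3.29 (standard error, SE, 0.73) and was 4.61 without this vehicle rat. At 30, 100 and 300 mkd Acot1 lay between 0.0469 and 0.882 CPM, with no rat above every vehicle rat. Acot1 and Acot7 were the 2 members called at 1000 mkd, where 21.4% of all genes were called.

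Males of day 8 in experiment B had 1.34, 0.742, 1.90, 0.607 and 1.08 CPM of Acot1 under vehicle. At 1500 mkd they had 37.0, 47.6, 10.5, 68.3 and 11.4 CPM, all above every vehicle rat, a log2 fold change of 4.93 (SE 0.71). The lower doses filled the range between, where the means of Acot1 were 2.23 ± 1.60, 4.54 ± 3.16, 8.78 ± 4.76 and 5.88 ± 6.30 CPM (SD, n = 5) from 300 to 1000 mkd. At 750 mkd the 5 rats were again above every vehicle rat, while neither edgeR nor DESeq2 called any of the 8 genes at 300 to 1000 mkd and edgeR called 0% of all genes there. At an unadjusted p under 0.05 there were 0, 5, 6 and 2 members at 300, 500, 750 and 1000 mkd. Here and below, counts at an unadjusted p are given without the share of all genes that passed it. They therefore cannot be read as an excess. At 1500 mkd, 3 members were called, Acot1, Acot2 and Acot3, against 0.177% of all genes in either direction and 0.142% that were called higher.

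Males of day 29 had 0.765, 1.91, 2.11, 0.572 and 1.49 CPM of Acot1 under vehicle and 3.99, 0.602, 217, 11.9 and 2.09 CPM at 1500 mkd. The spread within the 1500 mkd group covered more than the whole range of the vehicle group, and 3 of its rats were above every vehicle rat. The log2 fold change of 5.10 (SE 1.14) rested on the rat with 217 CPM (replicate 3), without which it was 1.71 and Acot1 was no longer called. The same rat had 1435 CPM summed over 16 proliferation genes, while the other 4 rats of its group had 32.1 to 99.2 CPM. Its hepatocyte markers summed to 90293 CPM, against 161622 to 199993 CPM in the other 4 rats. The paper identified this animal as an outlier in Ki67 labelling and left it out of the Ki67 dose modelling. The part of these traits in its Acot1 level was not tested. At 1000 mkd, 4 rats were above every vehicle rat, at 2.73, 15.7, 25.0 and 6.93 CPM of Acot1, and the fifth had 1.34 CPM. At 300, 500 and 750 mkd Acot1 stayed at 0.849 ± 0.404, 1.69 ± 1.28 and 2.06 ± 1.99 CPM (SD, n = 5). Acot1 and Acot13 were the members called at 1500 mkd, against 4.91% of all genes.

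Females of day 8 started from a higher and wider Acot1 level, with 2.01, 1.67, 12.1, 4.62 and 6.09 CPM under vehicle. At 750 mkd they had 64.3, 17.2, 19.7, 97.7 and 131 CPM and at 1000 mkd 31.7, 27.3, 35.8, 64.5 and 61.6 CPM, and at both doses the 5 rats were above every vehicle rat. At 750 mkd edgeR called 0.0174% of all genes, and Acot1 was called by DESeq2 but not by edgeR. At 1500 mkd the values were 7.25, 67.2, 78.1, 95.8 and 31.7 CPM, with 4 rats above every vehicle rat. The log2 fold changes of Acot1 from 750 to 1500 mkd were 3.65 (SE 0.73), 3.07 (SE 0.71) and 3.41 (SE 0.72), so that the level did not rise further above 750 mkd beyond the spread. Acot1 was the only member called at 1000 mkd, against 1.37% of all genes, and at 1500 mkd, against 0.705%. Neither call was firm, since leaving out any of 7 of the 10 rats compared ended it at either dose. At 1000 mkd these were the 5 vehicle rats and replicates 4 and 5 of the treated group, and at 1500 mkd replicates 1, 2, 4 and 5 of the vehicle and 2, 3 and 4 of the treated group. The log2 fold changes stayed between 2.84 and 3.64 at 1000 mkd and between 3.15 and 3.99 at 1500 mkd.

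Females of day 29 had 0.156, 1.54, 9.51, 0.652 and 1.20 CPM of Acot1 under vehicle and 7.17, 198, 30.2, 40.5 and 33.4 CPM at 1500 mkd. All but the first of these were above every vehicle rat, and the log2 fold change of Acot1 was 4.58 (SE 1.16). It was 3.43 to 6.10 when each rat was left out in turn, and Acot1 stayed called. The rat with 198 CPM (replicate 2) had 191 CPM summed over the proliferation genes, within the 63.1 to 218 CPM of its group. Means from 300 to 1000 mkd were 9.31 ± 12.1, 21.4 ± 27.5, 9.68 ± 6.83 and 15.5 ± 10.8 CPM (SD, n = 5), with SDs close to or above the means. Acot1 was the only member called at 1500 mkd, where 13.1% of all genes were called.

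**Figure D1:**
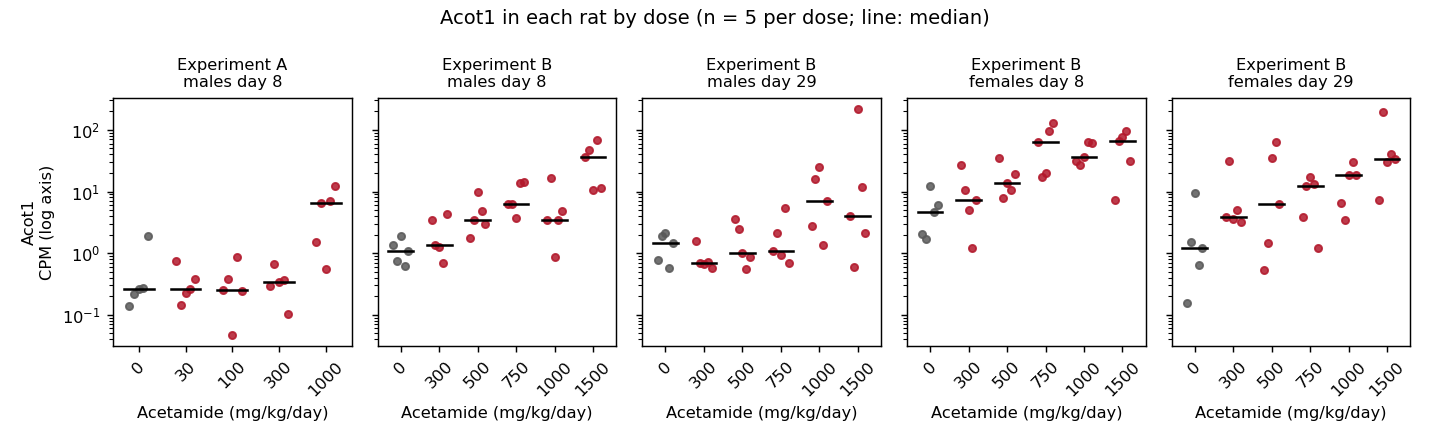
Acot1 in CPM (log axis) for each rat against the acetamide dose in mg/kg/day, with a panel for each data set, 5 rats per dose, grey points for vehicle, red points for acetamide and a line at the median. Males of experiment A stay under 1 CPM from 30 to 300 mkd, and single rats reach 217 CPM (males day 29) and 198 CPM (females day 29) at 1500 mkd.

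Acot2, Acot3 and Acot4 changed far less than Acot1, and the males of day 8 in experiment B were the data set where Acot2 and Acot3 passed the criteria. Acot2, the mitochondrial enzyme, had 48.8, 33.9, 60.2, 38.3 and 49.6 CPM under vehicle there and 114, 97.8, 82.5, 132 and 113 CPM at 1500 mkd. Acot3 had 31.2, 20.4, 47.5, 23.7 and 26.0 CPM under vehicle and 77.3, 66.5, 51.4, 94.3 and 60.1 CPM at 1500 mkd. For both genes the 5 treated rats lay above every vehicle rat. The log2 fold changes were 1.22 (SE 0.25) for Acot2 and 1.23 (SE 0.25) for Acot3. Acot4, the peroxisomal enzyme that acts on dicarboxylic acyl-CoAs, went from 60.8 ± 18.2 to 109 ± 15.7 CPM (SD, n = 5) without overlap, a log2 fold change of 0.84 (SE 0.21), and was not called by edgeR but was by DESeq2. The call of Acot2 ended without any of vehicle replicates 1 to 4 or replicates 1, 3 and 4 at 1500 mkd, and that of Acot3 without any of vehicle replicates 1, 2 and 4 or the same treated rats and in a fit of only the vehicle and 1500 mkd rats, while their fold changes stayed at 1.13 to 1.34 and 1.10 to 1.46.

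In the other data sets these 3 genes overlapped with vehicle at the highest dose. In males of day 29 at 1500 mkd, Acot2 had 41.5, 49.3, 138, 172 and 71.3 CPM and Acot3 had 36.6, 25.3, 86.7, 99.8 and 48.0 CPM, and in both genes the rats of replicates 3 and 4 were the highest. The log2 fold changes there were 0.45 for Acot2, 0.86 for Acot3 and 0.54 for Acot4, with SEs of 0.35, 0.35 and 0.31. Females had 0.55, 0.71 and 0.44 on day 8 and 0.66, 0.76 and 0.21 on day 29, in the same order of genes. On day 29 the females did not show a rising series, since Acot2 changed by 0.64 (SE 0.43) at 300 mkd and by 0.66 (SE 0.43) at 1500 mkd. In experiment A at 1000 mkd, where Acot1 rose, the log2 fold changes were 0.20 for Acot2, 0.01 for Acot3 and -0.18 for Acot4, each smaller than its SE.

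**Figure D2:**
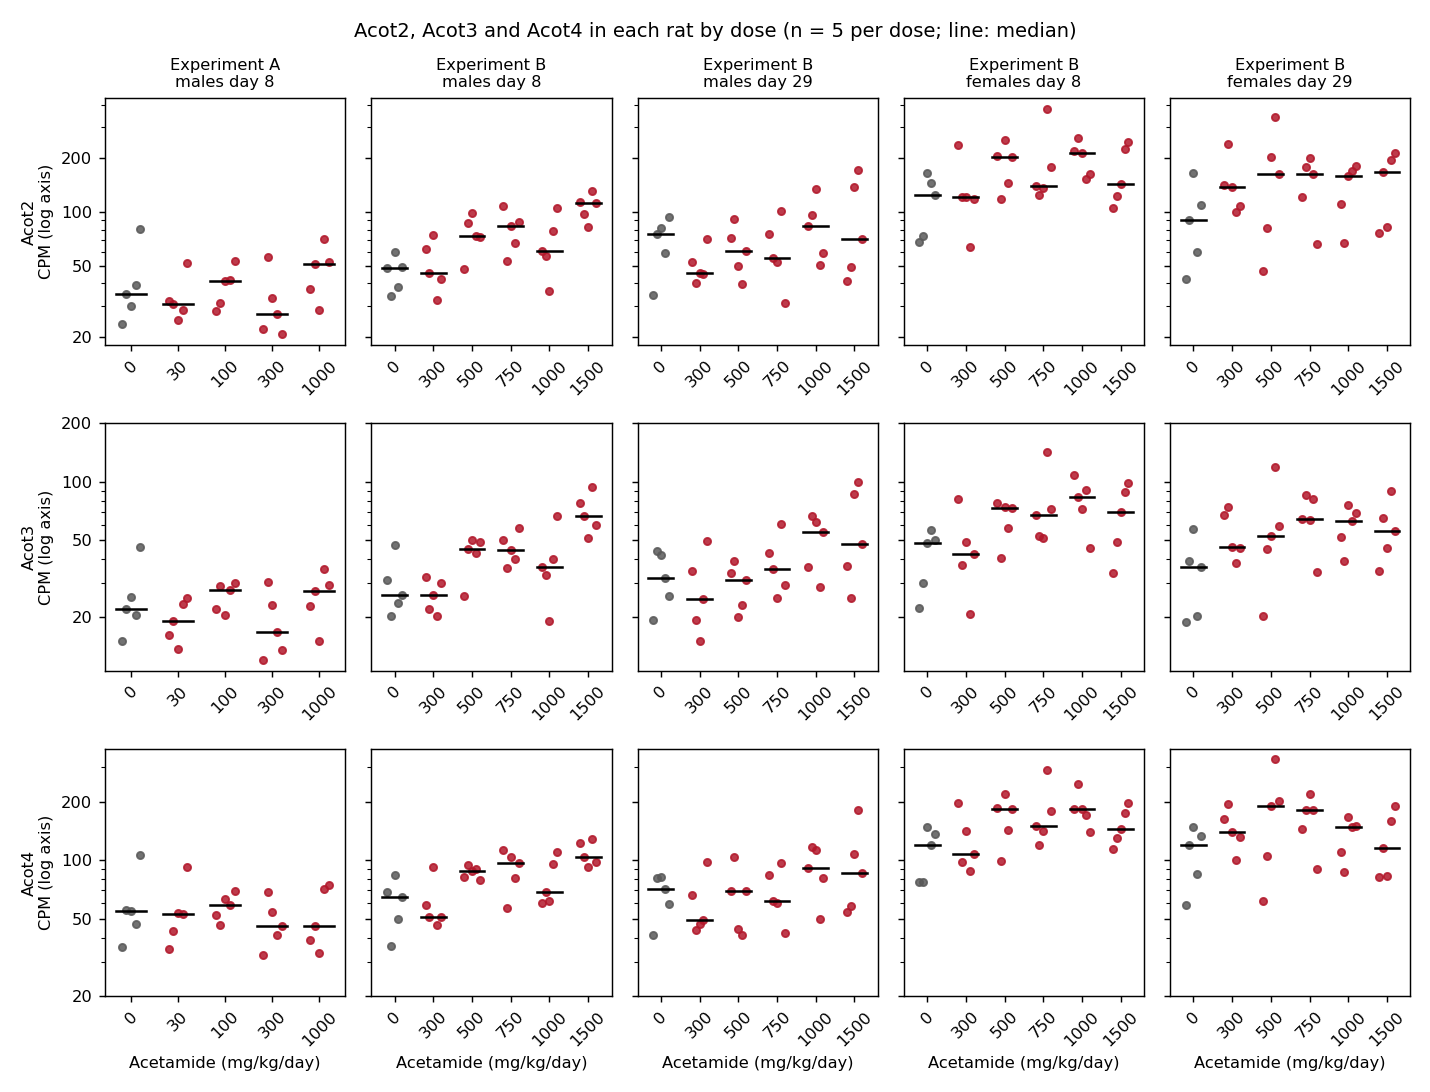
Acot2, Acot3 and Acot4 (rows) in CPM on a log axis for each rat against the acetamide dose in mg/kg/day, with a column for each data set, 5 rats per dose and a line at the median. Only in males of day 8 in experiment B do the 1500 mkd rats lie above every vehicle rat for all 3 genes, and Acot2 reaches 82.5 to 132 CPM there. The share of all genes that separate in this way is not given.

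Acot7 was the member called lower. In experiment A, vehicle rats had 32.9, 31.8, 32.6, 35.6 and 32.8 CPM of Acot7 and rats at 1000 mkd had 25.5, 17.7, 21.9, 19.8 and 25.0 CPM, without overlap. The log2 fold change of -0.59 (SE 0.13) was close to the fold criterion, and the call ended without vehicle replicate 4 (-0.57) and without replicates 2 (-0.52) or 4 (-0.55) of the 1000 mkd group. At this dose 7.45% of all genes were called lower. Between 300 and 1500 mkd in experiment B, Acot7 changed by between -0.14 and 0.31 on the log2 scale and was not called. At 1000 mkd, the change in males of day 8 was 0.69 lower in experiment A than in experiment B on the log2 scale (log2 difference -0.69, SE 0.20, adjusted p = 0.0758, edgeR), with 0% of all genes called. DESeq2 called Acot7 (log2 difference -0.70) among 646 genes. The experiments differed in strain and supplier, and these cannot be told apart from the experiment.

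Acot13 and Acot8 had their largest changes in males of day 29. Acot13, the mitochondria-associated enzyme, had 8.70, 11.2, 10.5, 11.6 and 10.3 CPM under vehicle and 18.7, 18.5, 13.0, 16.0 and 15.9 CPM at 1500 mkd, without overlap, a log2 fold change of 0.65 (SE 0.15). It was 0.57 (SE 0.15) at 500 mkd and 0.56 (SE 0.15) at 750 mkd, where it was not called. Its call at 1500 mkd ended without vehicle replicate 1 (0.53) and without 1500 mkd replicate 1 (0.57). Acot8 had 11.4, 9.79, 13.7, 13.0 and 11.2 CPM under vehicle and 16.7, 17.9, 15.4, 15.3 and 16.4 CPM at 1500 mkd in the same rats, again without overlap. Its log2 fold changes of 0.51, 0.57 and 0.47 (SE 0.13 each) from 750 to 1500 mkd had an adjusted p of at most 0.05 but stayed under the fold criterion. In the other data sets the changes at the highest dose lay between -0.14 and 0.23 for Acot8 and between 0.07 and 0.31 for Acot13.

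Acot12, the acetyl-CoA hydrolase, was the member that most often went down. Its log2 fold change was above 0 in 7 of the 24 dose contrasts, while Acot13 was above 0 in 23, Acot1, Acot8 and Acot3 in 20, 20 and 19, Acot2 and Acot7 in 18 and Acot4 in 17. These contrasts share the vehicle group within a data set and are not independent. At the highest dose Acot12 changed by -0.57 (SE 0.28) in experiment A, where the rats at 1000 mkd had 80.0, 23.7, 133, 61.9 and 70.0 CPM against 81.3 to 142 CPM under vehicle. The rat with 133 CPM (replicate 3) set this value, since without it the change was -0.90 and Acot12 was called. In experiment B the changes at 1500 mkd were -0.20 in males of day 8, -0.31 in males of day 29, 0.04 in females of day 8 and -0.40 in females of day 29, and none was called.

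Over all 24 dose contrasts, the 8 genes gave 192 values, of which 10 were called, 6 of them for Acot1. At doses below the highest, 1 of 152 was called, that of Acot1 in females of day 8 at 1000 mkd, and DESeq2 called 3, each of them Acot1. Of the 152, 41 had an unadjusted p under 0.05, for which the share of all genes is not given. At these doses edgeR called 0% of all genes in experiment A and in males of day 8, at most 2.76% in males of day 29 (0% up to 500 mkd and 0.78% at 750 mkd), between 0.0087% and 1.37% in females of day 8 (0.0174% at 500 mkd) and between 0% and 1.59% in females of day 29 (0.0349% at 500 mkd and 0.183% at 750 mkd). The median log2 fold change of the 8 genes at the highest dose was -0.07 in experiment A, 0.58 in males of day 8, 0.50 in males of day 29, 0.27 in females of day 8 and 0.18 in females of day 29. Over all genes tested it was 0.00, 0.00, 0.07, 0.00 and 0.00, respectively.

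**Figure D3:**
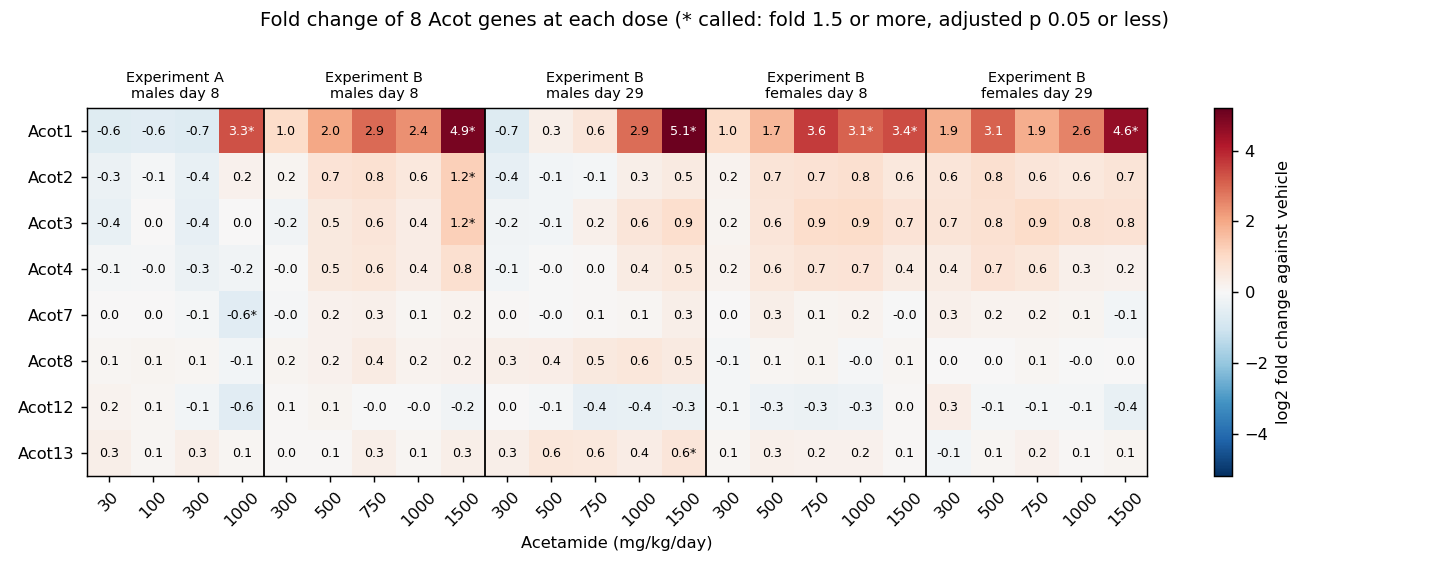
Log2 fold change against vehicle of the 8 genes (rows) at each dose in mg/kg/day (columns), grouped by data set, on a colour scale from blue (lower) to red (higher), with asterisks on the 10 called values. Acot1 carries 6 of the asterisks, and it alone has values above 2.

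The other thioesterases, the acyl-CoA synthetases that make the substrates of these enzymes, and the genes of fatty acid oxidation were followed beside the 8 genes. Their counts are to be read against the shares of all genes that edgeR called at the highest dose. These were 21.4% in experiment A, 0.177% in males of day 8, 4.91% in males of day 29, 0.705% in females of day 8 and 13.1% in females of day 29. Of 12 other thioesterases, 8 or 9 were tested per data set. In experiment A at 1000 mkd, Acot9, a mitochondrial enzyme, was called higher (log2 fold change 0.88, adjusted p = 0.0093, edgeR), as was Them4 (0.61, adjusted p = 0.0177), and Baat, which joins bile acids to amino acids, was called lower (-0.86, adjusted p = 0.0153). In females of day 29 at 1500 mkd Acot9 was called higher (0.77, adjusted p = 0.00637) and Baat lower (-0.69, adjusted p = 0.0107). At 1500 mkd in males of day 8, males of day 29 and females of day 8, edgeR called none, DESeq2 called 0, 1 and 1, and 0, 3 and 3 had an unadjusted p under 0.05.

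Of 14 acyl-CoA synthetases tested, 1 was called higher and 4 lower in experiment A, against 21.4% of all genes called. In females of day 29 at 1500 mkd, 1 was called higher and 3 lower, against 13.1% of all genes. Slc27a5, the bile acid-CoA ligase, changed by -0.89 and -0.85 on the log2 scale in these 2 data sets, and Acss3 by -0.68 and -0.89. In males of day 8, males of day 29 and females of day 8 none was called by edgeR or DESeq2, and 4, 3 and 3 had an unadjusted p under 0.05.

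Of 46 genes of fatty acid oxidation and other PPARα targets, 24 were called lower and 1 higher in experiment A at 1000 mkd. There 7.45% of all genes were called lower and 21.4% in either direction. The median log2 fold change of the list was -0.67, at the dose where Acot1 was called higher. Acads, a short-chain acyl-CoA dehydrogenase, changed by -1.02 (adjusted p = 0.00112, edgeR), while Cpt1b, a carnitine palmitoyltransferase of muscle type, changed by 0.92 (adjusted p = 0.0329). At 1500 mkd, 2 were called higher and 2 lower of 44 tested in females of day 29, against 13.1% of all genes called. In males of day 29 Acox3 alone was called (lower) at 1500 mkd, against 4.91% of all genes. At the same dose edgeR called 0 in males and females of day 8, where 7 and 5 had an unadjusted p under 0.05 and DESeq2 called 1 in each. The medians of the list were 0.11 in males of day 8, 0.04 in males of day 29, -0.05 in females of day 8 and -0.22 in females of day 29.

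Other lists held called genes at the same doses, where edgeR called 21.4% of all genes in experiment A and 13.1% in females of day 29. All 16 proliferation genes were called higher in experiment A at 1000 mkd and in females of day 29 at 1500 mkd, 13 in males of day 29, 2 in females of day 8 and 1 in males of day 8 by edgeR, and DESeq2 called 11 and 12 in females and males of day 8. In males of day 29 the 13 became 6 without replicate 3 at 1500 mkd, which summed to 1435 CPM of these genes against 32.1 to 99.2 CPM in the other 4 rats and 28.0 to 61.8 CPM under vehicle. In experiment A the 9 macrophage markers summed to 478 to 1388 CPM under vehicle and to 1127 to 2083 CPM at 1000 mkd, ranges that overlap, with 6 called higher. In females of day 29 their sum was 847 to 1086 CPM under vehicle and 1039 to 1882 CPM at 1500 mkd, with 4 called higher. Of 8 T and NK cell markers, the 7 tested in experiment A summed to 4.99 to 6.10 CPM under vehicle and to 7.68 to 22.2 CPM at 1000 mkd. All 7 were called higher there, and 2 of 6 tested (Lck and Nkg7) were called higher in females of day 29. Hepatocyte markers summed to 227165 to 317430 CPM under vehicle and 67016 to 216510 CPM at 1000 mkd in experiment A, with 4 of 10 called lower. In females of day 29 Alb and Cps1 were called lower and Apoa1 higher, and in males of day 29 Apob was called lower and Cyp2e1 higher. These sums cover only markers that passed the filter on low counts in the data set. That filter removes genes at or near 0, so absent markers were not looked for. Of the shorter lists, 2 of 3 neutrophil markers were called lower in experiment A (S100a8 and S100a9) and 1 higher in females of day 29 (Csf3r). Erythroid markers were called lower, 2 of 3 in experiment A and 3 of 3 in females of day 29. Those called higher in these data sets were 3 and 2 of 5 endothelial markers, 1 and 1 of 6 stellate cell markers and, in females of day 29, 1 of 4 cholangiocyte markers. No B cell marker was called by edgeR or DESeq2, with 0 at an unadjusted p under 0.05, and edgeR called none of these shorter lists at 1500 mkd in the other data sets, where 2 to 4 markers per data set had an unadjusted p under 0.05 and DESeq2 called 1 (in males of day 29). None of the 12 clock genes was called at the highest dose of any data set by edgeR or DESeq2, and 1 (in males of day 29) had an unadjusted p under 0.05. The part of these shifts in the levels of the 8 genes was not tested.

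Vehicle rats of experiment B allowed a comparison that the choice of the genes did not use, that between the sexes. It was made in a joint fit of the vehicle and 1500 mkd rats of the 4 data sets, 40 rats, and CPM here are scaled within that fit. Females had more Acot2 on day 8 and less Acot12 on day 29 than males. On day 8, vehicle males had 52.1, 35.9, 63.8, 40.8 and 52.7 CPM of Acot2 and vehicle females had 64.2, 68.8, 155, 135 and 116 CPM, each above every male. The log2 difference was 1.14 (SE 0.37, adjusted p = 0.0412, edgeR), and 7.24% of all genes were called. On day 29 the difference of Acot2 was 0.32 (SE 0.36, adjusted p = 0.597). The call of day 8 was not firm, since it ended when any of 7 of the 10 rats was left out (female replicates 3 to 5 and male replicates 1, 2, 4 and 5), and the adjusted p over all alternatives lay between 0.0171 and 0.14.

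Acot12 on day 29 was 116, 170, 126, 150 and 109 CPM in vehicle males and 65.8, 70.3, 49.5, 93.5 and 91.3 CPM in vehicle females, each below every male. The log2 difference was -0.86 (SE 0.19, adjusted p = 0.00157, edgeR), where 10.8% of all genes were called, and it was called under all 15 alternatives, with adjusted p from 0.000284 to 0.00933. On day 8 the difference of Acot12 had the same direction, -0.47 (SE 0.19, adjusted p = 0.12). Acot13 was lower in females of day 8 (log2 difference -0.47, SE 0.15, adjusted p = 0.0452), under the fold criterion, and its difference on day 29 was smaller than its error (0.05, SE 0.15). Acot4 was 0.70 (SE 0.29, adjusted p = 0.138) higher in females on day 8 and 0.58 (SE 0.29, adjusted p = 0.174) on day 29, and Acot1 2.01 (SE 1.12, adjusted p = 0.31) and 0.78 (SE 1.12, adjusted p = 0.688). Sequencing batches are not labelled, so that a batch that followed sex or day cannot be told apart from them.

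The neighbours Acot5 and Acot6, which are outside the 8 genes, were called higher in vehicle females on both days. Of the 9 other thioesterases tested, Baat was also called, lower in females on day 8. The share of all genes called was 7.24% on day 8 and 10.8% on day 29. Acot5 was higher in vehicle females by 2.03 on the log2 scale on day 8 (adjusted p = 5.6e-05, edgeR) and by 1.95 on day 29 (adjusted p = 8.0e-05). Vehicle males had 7.08 to 22.8 CPM of Acot5 on day 8 and females 49.1 to 85.5 CPM. Acot6 was at 0 to 0.348 CPM in the vehicle males and at 0.121 to 1.37 CPM in the vehicle females of both days. These values are near the floor and the ranges overlap.

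**Figure D4:**
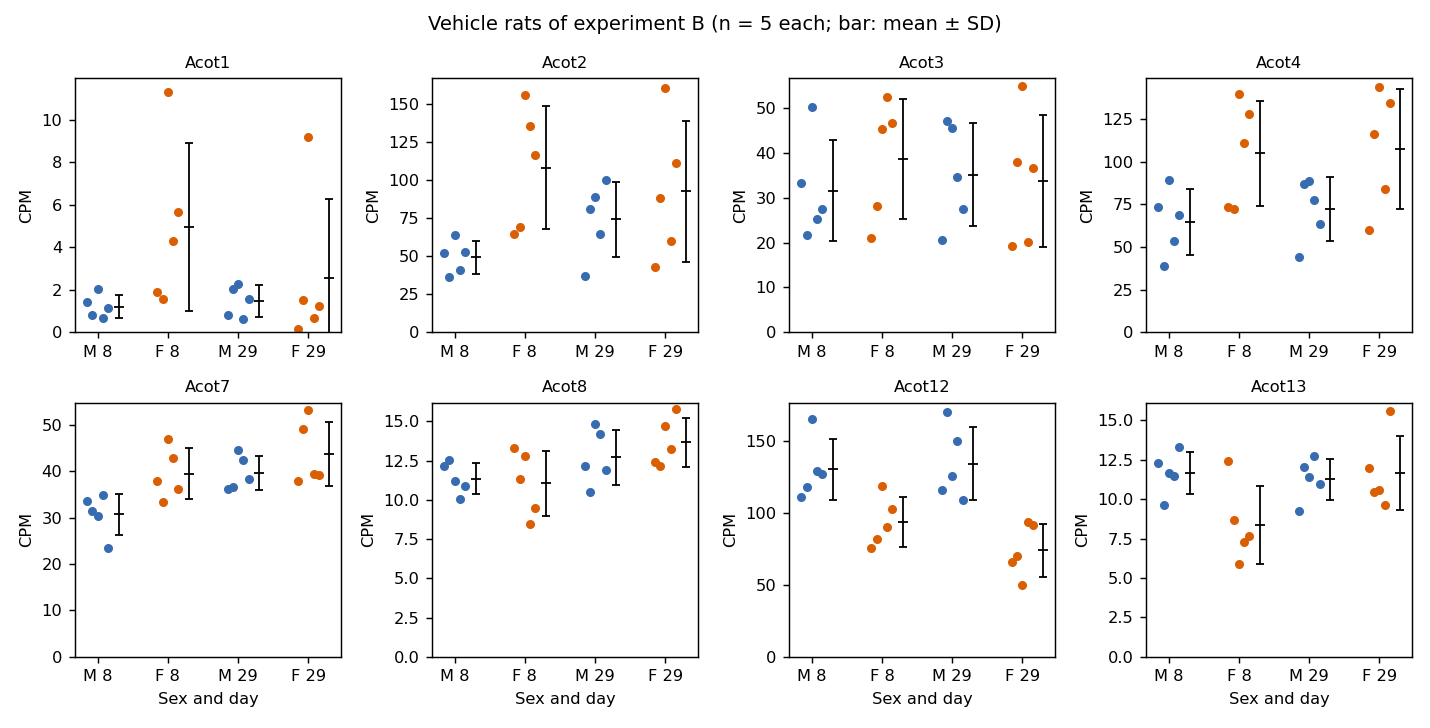
CPM of the 8 genes in vehicle males (M, blue) and females (F, orange) of experiment B on days 8 and 29, scaled in the joint fit, with 5 rats per group as points and the mean ± SD beside them (the SD bar of Acot1 is cut at 0). Acot2 of day 8 and Acot12 of day 29 are the called differences, with 64.2 to 155 CPM of Acot2 in females against 35.9 to 63.8 CPM in males.

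Between day 29 and day 8 no member was called in vehicle males or vehicle females by edgeR, where 0.0259% and 0.371% of all genes were called, and DESeq2 called 0 in both. At an unadjusted p under 0.05 there was 1 member in males (Acot7) and there were 2 in females (Acot8 and Acot13). The change at 1500 mkd did not differ between the sexes or between the days for any member by edgeR or DESeq2, and edgeR called 0% of all genes in these 4 interactions (DESeq2 0 to 31 genes). At an unadjusted p under 0.05 there were 2 members in the comparison of the sexes on day 29 (Acot8, log2 difference -0.46, SE 0.17, and Acot13, -0.50, SE 0.22, both with a smaller change in females) and 0 in the other 3. For Acot1 the SE of such a difference was 1.41 to 1.52 on the log2 scale, so that the difference between the female and the male change on day 8 (-1.50 on the log2 scale, SE 1.46, adjusted p = 0.999, edgeR) was close to its error.

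The spread between rats of a group was itself ordered. Each rat's log2 CPM was set against the mean of its group, which takes off dose, sex, day and experiment, and the deviations were compared over the 145 rats. Acot2, Acot3 and Acot4 rose and fell together from rat to rat, and Acot1 went with them. Acot2 and Acot4 had a Pearson's r of 0.91 (Spearman's rho 0.90), Acot2 and Acot3 0.86 (rho 0.84), and Acot3 and Acot4 0.85 (rho 0.85). Acot1 had an r of 0.73 with Acot2 (rho 0.69), 0.72 with Acot3 (rho 0.71) and 0.62 with Acot4 (rho 0.60). In these 6 pairs the two-sided permutation p, from 100000 permutations within groups, was 1e-05 for r and rho, the smallest that they can give, and the adjusted p over all 52 relations computed was 4e-05 for r and 4.3e-05 for rho. The permutations exchanged rats freely within a group, so an order of handling shared by rats across groups was not separated from these relations. Without the 2 rats farthest from the median, r stayed between 0.61 and 0.90. Within the data sets it was 0.83 to 0.97 for Acot2 with Acot4, 0.44 to 0.91 for Acot1 with Acot2 and 0.26 to 0.82 for Acot1 with Acot4.

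The remaining members were looser. Acot7 went with Acot3 (r = 0.50, rho 0.48), Acot2 (r = 0.48, rho 0.43) and Acot4 (r = 0.40, rho 0.36), and Acot8 with Acot13 (r = 0.45, rho 0.39, two-sided permutation p = 2e-05 for r). Acot12 had an r between -0.12 and 0.18 with each of the other 7 genes. Of the 52 relations, 21 had an adjusted p of at most 0.05 by both measures. The number of reads counted on genes was among them only for Acot13 (r = -0.20, rho -0.22, adjusted permutation p = 0.0427 for r). The share of other gene pairs that reach such a p is not given, so these counts show no excess.

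Genes of fatty acid oxidation moved with the Acot2 group in the same way. A score, the mean log2 CPM of 44 genes of fatty acid oxidation and other PPARα targets, had an r of 0.70 with Acot4 (rho 0.72), 0.68 with Acot2 (rho 0.72), 0.60 with Acot3 (rho 0.62), 0.56 with Acot7 (rho 0.48) and 0.53 with Acot12 (rho 0.45). Each of these had the smallest possible permutation p of 1e-05 for r and an r above 0 in 5 of 5 data sets. How many genes outside the 8 reach such an r with this score is not given. For Acot1 the r with this score was 0.31 (rho 0.34, permutation p = 0.00315 for r, adjusted 0.00862), from -0.00 to 0.59 within the data sets. With the mean of 16 proliferation genes the order was reversed over all rats, at 0.46 for Acot1 (rho 0.36, permutation p = 2e-05 for r), 0.32 for Acot3, 0.30 for Acot2 and 0.19 for Acot4 (rho 0.30, 0.28 and 0.19). This order did not hold in each data set, where the r of Acot1 was 0.19 to 0.71. In experiment A it was 0.34, against 0.69 for Acot2 and 0.62 for Acot3. In males of day 8 in experiment B it was 0.19, against 0.49 and 0.44. Without the 2 rats farthest from the median of Acot1, its r with the proliferation score was 0.37. Whether these values of r differ from each other was not tested. Acot8 and Acot13 had an r between -0.11 and 0.06 with the 2 scores.

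**Figure D5:**
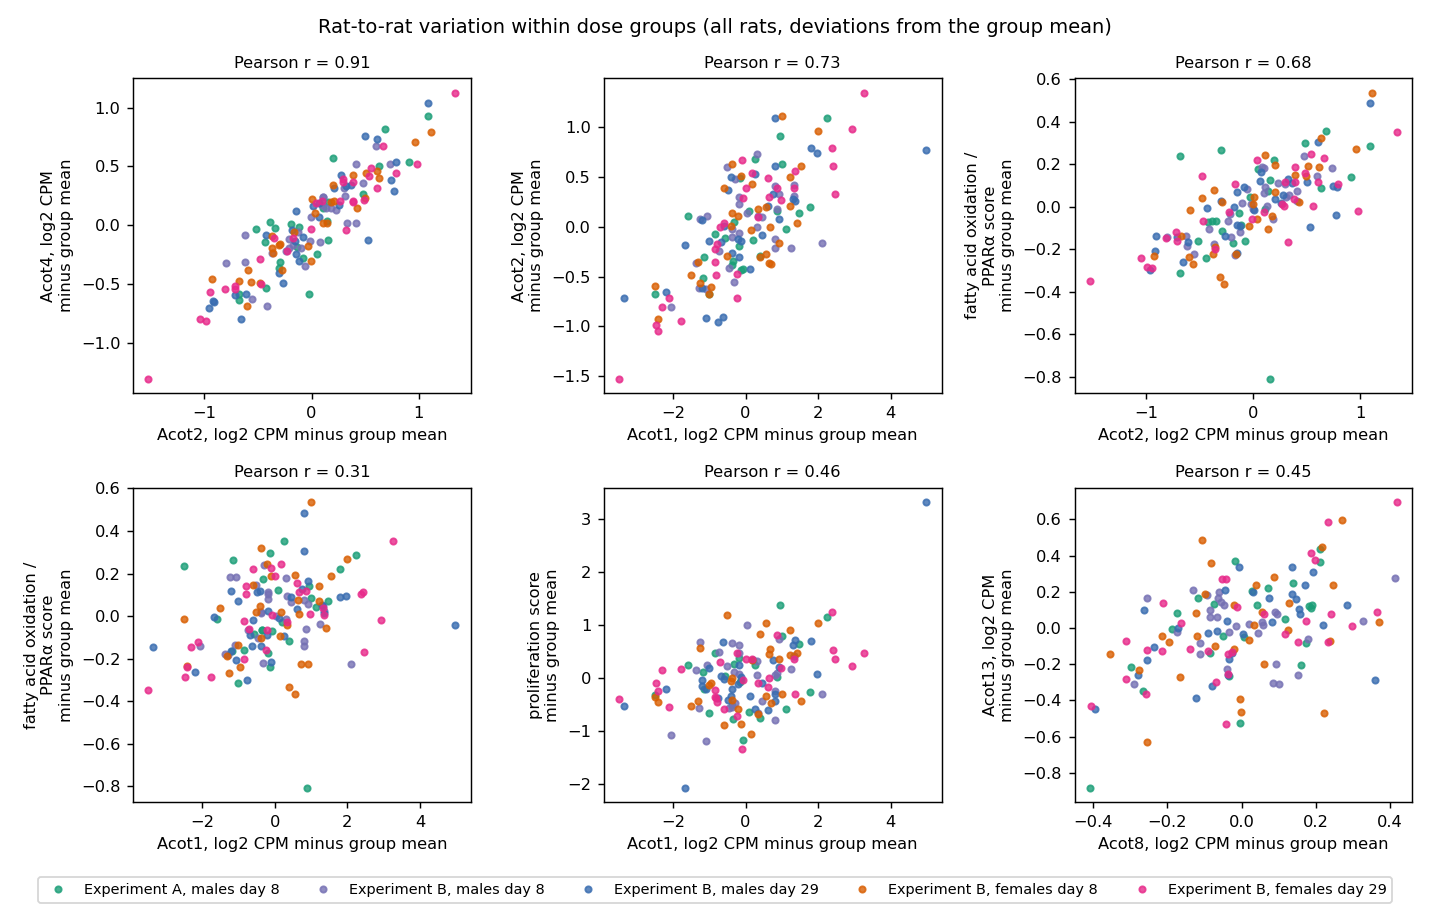
Deviation of each rat from its group mean on the log2 CPM scale for 6 of the 52 pairs, with 145 rats coloured by data set and Pearson's r above each panel. Acot2 and Acot4 form a narrow band (r = 0.91), the fatty acid oxidation score has r = 0.68 with Acot2 and r = 0.31 with Acot1, and the male of day 29 with 217 CPM of Acot1 is the point at the upper right of the proliferation panel.

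The genes most like Acot1 were sought among 11060 genes tested in all data sets, by the mean over the 5 data sets of Pearson's r of log2 CPM over all rats, which includes the effect of dose. They were Acot3 (mean r 0.75), Capn1 (0.74), Acot2 (0.74), Tacc3 (0.73), Iqgap3 (0.73), Tubb6 (0.73), Haus4 (0.72), Plk1 (0.72), Kif18b (0.72) and Tpx2 (0.71). Plk1, Tpx2, Tacc3, Haus4 and Kif18b are genes of mitosis and the spindle. On deviations from the group mean, with a single r over the 145 rats, the list was Acot2 (r = 0.73), Acot3 (0.72), Acot4 (0.62), Cdr2 (0.60), Tmem120a (0.60), Hsdl2 (0.58), Capn1 (0.58), Iqgap3 (0.58), Cgref1 (0.57) and Lrrfip1 (0.53), in which none of these 5 genes is left. The 2 lists differ both in the removal of the group mean and in pooling the rats rather than averaging r over data sets. The genes most like Acot2 were Acot4 (mean r 0.90), Acot3 (0.89), Hsdl2 (0.79), Plin2 (0.76) and Pex11a (0.74), and the same 5 genes led on the deviations, with r from 0.76 to 0.91. Plin2 coats lipid droplets and Pex11a takes part in the division of peroxisomes.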

How the data were processed

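Liver RNA from 145 rats was sequenced, and the authors deposited 5 tables of raw read counts per gene, one per data set. Per the methods, reads were trimmed with Trimmomatic, aligned with Bowtie2 to the build Rn6 and counted with HTSeq. The versions are not given in the sources used here, nor is the strand setting, although the kit marks strand. HTSeq summary lines, 35.5 to 67.1% of a rat's counts in experiment B, were removed. They include reads with too low a mapping quality, at 13.6 to 46.7% of all counts of a rat, which could take reads from near-identical genes. The tables of experiment A hold no such lines.

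Counts were taken as deposited. Each data set was fitted over all its doses with edgeR 4.0.16 (R 4.3.3), with TMM scaling, the default filter on low counts (filterByExpr) and the quasi-likelihood F-test, and Benjamini-Hochberg adjustment over all genes tested. CPM used TMM library sizes (factors 0.727 to 1.91), and log2 CPM a prior count of 2. Vehicle and 1500 mkd rats of experiment B (40 rats) were fitted jointly for sex, day and interactions. A fit of 20 males of experiments A and B at 0 and 1000 mkd, the correlations within groups and the fits of members and lists without replicate 3 of the 1500 mkd males of day 29 were added after seeing the data. Alternatives were DESeq2 1.42.0 and its size factors, the omission of the filter, a minimum of 10 counts in all rats, a fit of only the 2 groups compared, a replicate block and each rat left out in turn.

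On simulated counts for males of day 29 at 1500 mkd (11247 genes), 62.0% of genes changed 2-fold and 96.0% of those changed 4-fold were called, with 5 false calls. For the sex difference of day 8 (11532 genes) it was 60.8% and 95.0%, with 10.

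The 8 genes and the gene lists were chosen with earlier results of these data known. The members are all named, as is each other thioesterase that was called, at most 3 genes of every other list (those called at the highest dose in the most data sets, ties by the larger mean absolute log2 fold change), and the 10 and 5 genes most like Acot1 and Acot2. No pair of rats had identical counts (highest correlation 0.997). The number of reads limits the precision of low genes such as Acot1, with 4 reads in the lowest vehicle rat.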

Additional observations from a re-analysis of the deposited data

Results flagged for a closer look

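A member's group of 5 rats is listed here when its highest or lowest rat stood apart, with a gap to the nearest rat of more than 0.71 of the group's range (Dixon's criterion). Of 232 groups, 19 did so (8.19%). The criterion gives about 1 in 20 only for independent values with a normal distribution. CPM here are not on a log scale and several of the genes vary together, so 8.19% was not compared with a chance rate.

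Acot1 accounted for 7 of the 19. Its highest rat had 1.90 CPM among the vehicle males of experiment A (others 0.140 to 0.271), 9.51 CPM among vehicle females of day 29 (others 0.156 to 1.54), 30.9 CPM among females of day 29 at 300 mkd (others 3.24 to 5.02) and 198 CPM among those at 1500 mkd (others 7.17 to 40.5). In males of experiment B it had 16.9 CPM of Acot1 on day 8 at 1000 mkd (others 0.874 to 4.85), 1.56 CPM on day 29 at 300 mkd (others 0.580 to 0.729) and 217 CPM on day 29 at 1500 mkd (others 0.602 to 11.9).

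The vehicle rat of experiment A with the high Acot1 (replicate 5) also stood apart in Acot2, at 80.8 CPM (others 23.7 to 39.3), and in Acot4, at 106 CPM (others 35.9 to 55.2). A rat of the females of day 8 at 750 mkd (replicate 4) stood apart in Acot2 at 377 CPM (others 125 to 179), in Acot3 at 142 CPM (others 51.5 to 72.4) and in Acot7 at 77.1 CPM (others 32.8 to 44.6). A male of day 8 at 500 mkd (replicate 1) was lowest in Acot3 at 25.8 CPM (others 43.1 to 49.9) and highest in Acot8 at 15.8 CPM (others 11.5 to 12.2).

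The remaining groups had a single gene each. The highest rats were at 52.3 CPM of Acot2 in experiment A at 30 mkd (others 24.9 to 32.0), 92.5 CPM of Acot4 in males of day 8 at 300 mkd (others 46.8 to 59.0), 35.6 CPM of Acot7 in vehicle males of experiment A (others 31.8 to 32.9) and 15.6 CPM of Acot13 in females of day 29 at 300 mkd (others 8.39 to 10.1). The lowest was at 30.0 CPM of Acot7 in males of day 29 at 500 mkd (others 36.0 to 38.3).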

How the results depend on the processing

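Of 654 alternative values for the fold changes against dose, 653 stayed within the spread between rats of the main value. Direction was checked only where the main value was called, so small uncalled changes may have switched sign. The exception was Acot1 in males of day 29, at 1.71 in place of 5.10 on the log2 scale without 1500 mkd replicate 3. The spread used here is the mean SD of log2 CPM in the 2 groups compared. Leaving out 1 of 5 rats can hardly move a value that far, so the 653 values say little about stability. Of 142 alternative values for the differences between sexes, days and experiments, 125 kept direction and side of the threshold, 7 lost the threshold, all for Acot2 between vehicle sexes on day 8, 4 newly passed it and 6 reversed. The number of members called at the highest dose went from 2 to 0 in experiment A and from 1 to 0 in females of day 29 with at least 10 counts in every rat, because Acot1 was no longer tested and Acot7 fell under the fold criterion (-0.56). In males of day 29 it went from 2 to 1 without a filter on low counts and with only the 2 groups compared, in males of day 8 from 3 to 2 (Acot3 lost) with only the 2 groups compared, and in females of day 8 from 1 to 0 with only the 2 groups compared. DESeq2 called 1 member (Acot7) in place of 0 in the difference between experiments A and B. When each rat was left out in turn, the number of members called was 1 to 3 in experiment A, 1 to 3 in males of day 8, 1 to 2 in males of day 29, 0 to 1 in females of day 8 and 1 to 2 in females of day 29. The vehicle difference between the sexes gave 0 to 2 on day 8, where without female replicate 1 Acot13 was added (-0.66), and 1 throughout on day 29. The vehicle difference between the days gave 0 to 1 in females, where Acot13 was called without female replicate 1 of day 8 (0.68), and the difference between experiments A and B gave 0 to 1, where Acot7 was called without 1000 mkd replicate 1 of experiment A (-0.74) or replicate 2 of experiment B (-0.81). Acot3 was called in females of day 29 without vehicle replicate 3 (1.02). Where no reason is given, the cause was not tested.

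The difference in the change of Acot1 between day 29 and day 8 in males reversed, from 0.17 to -1.41 with the replicate block, and lay between -3.20 and 0.56 when each rat was left out in turn, the lowest without 1500 mkd replicate 3 of day 29. Rats of the same number were treated as unpaired, since no label ties them. Between vehicle and highest dose, 15 of 25 sets of the same replicate number had a correlation of deviations above 0.1. As a hint from the data, 13 of 25 correlated best with their own replicate number. In experiment A this number is the order within the group, and at the highest dose it differs from the number in the title of the rat. Its sets among the 25 and its replicate block therefore cannot show whether rats of the same title number were paired. With the replicate block the number of members called in females of day 8 at 1500 mkd went from 1 to 0 (Acot1 lost, log2 fold change 3.56), and the other counts stayed within 1.5 times. Acot1 in vehicle rats, at 4 to 284 reads, is the member that depth limits most.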
